A study of Mus musculus with 24 samples.

Results

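The genes described here encode 9 small secreted proteins of the whey acidic protein (WAP) family: Wfdc1, Wfdc2, Wfdc3, Wfdc5, Wfdc12, Wfdc17, Wfdc18, Wfdc21 and Slpi. They were picked by name from the expression table of regrowing and non-regrowing mouse digit tips, and all 9 were found among its 15055 genes. Wfdc17 and Wfdc18 were singled out in that choice because their values moved strongly, so both are described below without a test. The other 7 were tested with all genes of the table.

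RNA came from hind limb digit tips of C57BL/6 mice aged 10 to 12 weeks, with bone, cartilage, marrow, dermis and epidermis in 1 sample and ribosomal RNA depleted. The tips had been cut distally, a wound from which the adult mouse tip is known to regrow, or proximally, a wound from which it does not. Tissue was collected 12, 14 or 21 days later, which gives 6 groups of 4 libraries each, 24 libraries in all, and no uninjured tip was among them. All animals had the same strain and no genetic change or drug is named for any group. Whether each library is a different mouse is not stated in the labels. The p-values therefore reflect the scatter among libraries, which may be technical in part.

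A WAP domain is a short fold held together by disulfide bonds between conserved cysteines, and several proteins that carry it block serine proteases. Slpi, the secretory leukocyte peptidase inhibitor, is the best known of them: it is made by surface epithelia and by myeloid cells, inhibits neutrophil elastase and cathepsin G, and has antimicrobial activity. Wfdc17 is known as a WAP protein of activated macrophages and microglia, Wfdc18 as an extracellular proteinase inhibitor described in the mammary gland, Wfdc2 (HE4) as a secretory product of epithelia, and Wfdc1 (ps20) as a stromal protein first studied in the prostate.

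The genes lie in a few places of the mouse genome (build GRCm38). Wfdc17 (chromosome 11, 83704056 to 83706269), Wfdc18 (83709004 to 83711360) and Wfdc21 (83746940 to 83752646) follow each other on the plus strand of chromosome 11, and Wfdc17 and Wfdc18 are separated by 2735 bases. On chromosome 2 lie Wfdc5 (164176325 to 164182742), Wfdc12 (164189231 to 164190558), Slpi (164354070 to 164356507), Wfdc2 (164562715 to 164568510) and Wfdc3 (164731226 to 164745994). Wfdc1 stands alone on chromosome 8 (119666365 to 119688020). The annotation places the antisense gene A730032A03Rik over Wfdc5 and Wfdc12 and the antisense gene Gm32352 over Wfdc1. The strand setting of the counting is unknown here, so reads of these antisense genes cannot be told apart from those of Wfdc5, Wfdc12 and Wfdc1. No stretch of 50 bases of any of the 9 genes' transcripts occurs, read in the same direction, in a transcript of another annotated gene. Reverse complements were not searched, so this does not cover the antisense genes.

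The stretches before the Wfdc17, Wfdc18 and Slpi start sites are shown because Wfdc17 and Wfdc18 are neighbours whose distal minus proximal differences had opposite signs at 12 and 21 days, and because Slpi had the widest change over time of the tested genes. Each is the 250 bases upstream of the RefSeq start (GRCm38.p6), at chr11:83703806-83704055 on the plus strand, chr11:83708754-83709003 on the plus strand and chr2:164356508-164356757 on the minus strand. Capitals mark matches, on either strand, to any of 6 short motifs.
Wfdc17: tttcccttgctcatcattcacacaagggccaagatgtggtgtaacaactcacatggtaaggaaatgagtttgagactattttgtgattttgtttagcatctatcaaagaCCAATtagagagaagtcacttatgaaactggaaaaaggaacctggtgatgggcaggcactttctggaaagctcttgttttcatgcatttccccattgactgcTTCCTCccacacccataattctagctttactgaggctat
Wfdc18: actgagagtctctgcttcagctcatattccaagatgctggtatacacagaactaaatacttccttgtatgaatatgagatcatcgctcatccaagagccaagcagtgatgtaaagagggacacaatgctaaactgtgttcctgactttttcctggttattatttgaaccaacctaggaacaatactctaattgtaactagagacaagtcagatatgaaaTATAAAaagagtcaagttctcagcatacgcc
Slpi: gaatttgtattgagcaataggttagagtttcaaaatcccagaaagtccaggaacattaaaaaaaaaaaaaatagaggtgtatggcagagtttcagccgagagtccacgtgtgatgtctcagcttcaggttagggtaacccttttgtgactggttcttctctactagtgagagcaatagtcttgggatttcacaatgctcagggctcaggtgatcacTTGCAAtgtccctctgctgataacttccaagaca

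The search looked for the TATA box motif TATAAA, the CCAAT box, the AP-1 motif TGANTCA, the C/EBP motif TTGCAA, the PU.1 motif GAGGAA and the NF-kB motif, each on both strands. Wfdc18 held TATAAA, whose first base lies 31 bases before its start site, and 12.4% of the 32851 RefSeq windows of this length held that motif. Wfdc17 held CCAAT (33.8% of windows) and the reverse complement of GAGGAA (23.3% of windows). Slpi held TTGCAA, 34 bases before its start (5.34% of windows). The 2 matches in Wfdc17 do not overlap. A match is only a run of letters, and TGANTCA (6.75% of windows) and the NF-kB motif (1.21%) were not found in these 3 stretches. A local alignment of the 300-base windows that run from 250 bases before to 50 bases after the start paired Wfdc17 with Wfdc18 over 230 columns, of which 153 (66.5%) were identical. The paired stretches ran from about 240 to 28 bases before the Wfdc17 start, and from 171 bases before to 50 bases after the Wfdc18 start. The 2 start sites thus do not line up. Of the other 32850 windows only 2 scored that high or higher against Wfdc17, namely Wfdc18 and another window whose gene is not named here. Wfdc18 scored 60, and the highest score apart from it was 181. Windows for Wfdc1, Wfdc5 and Wfdc21 were not analysed here.

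Per kilobase of the gene length given in the table, the 9 genes differed widely, and the values here are mean deposited values per kilobase. Wfdc12, Wfdc21, Wfdc18 and Wfdc17 held the first 4 places in every group except distal 14 days, where Slpi (495) stood above Wfdc17 (303). Wfdc12 led in 4 groups. At 12 days it stood at 3081 ± 1276 (SD, n = 4) distally and 3460 ± 1217 proximally, and it overlapped the next gene in both. Wfdc18 led at 14 days after distal amputation, at 2819 ± 603, with no library overlapping Wfdc12, at 1147 ± 421. Wfdc21 led at 21 days after proximal amputation, at 3735 ± 2076, with no library overlapping Wfdc12, at 1669 ± 511. Wfdc3 was last in all 6 groups, from 2.08 ± 1.59 in proximal 12 days to 15.8 ± 2.98 in proximal 21 days. In the proximal 14 day, proximal 21 day and distal 21 day groups every neighbouring pair among the places held by Wfdc1, Wfdc2, Wfdc5 and Slpi overlapped.

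**Figure D1:**
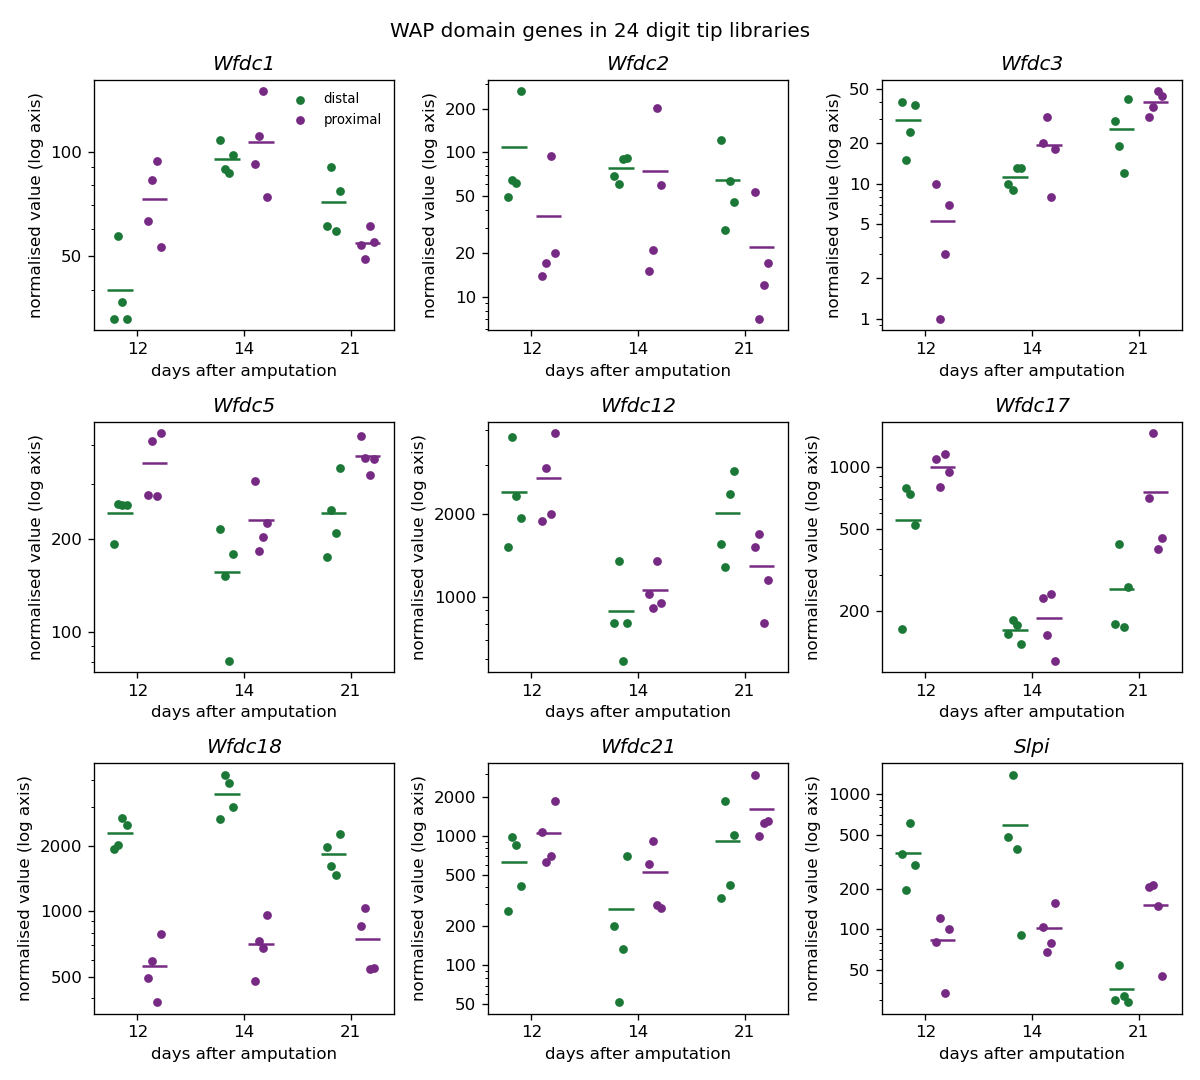
Normalised value (log axis) of each of the 9 genes in every library, by day after amputation, with distal libraries in green and proximal ones in purple; horizontal bars are group means of 4 libraries. Wfdc18 shows all green points above all purple ones, and the mean bars of Wfdc12 and Wfdc17 sit lower at 14 than at 12 days.

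Wfdc18 separated the amputation levels throughout. After distal amputation its deposited values in replicates 1 to 4 were 1930, 2017, 2668 and 2488 at 12 days, 2651, 4232, 3869 and 3006 at 14 days, and 1975, 1622, 1467 and 2259 at 21 days. After proximal amputation they were 496, 593, 383 and 786 at 12 days, 477, 729, 677 and 959 at 14 days, and 860, 1039, 543 and 550 at 21 days. The lowest of the 12 distal libraries, at 1467, thus lay above the highest of the 12 proximal ones, at 1039.

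On the log2(value + 1) scale, the distal minus proximal difference of Wfdc18 was 2.05 ± 0.24 (moderated standard error) at 12 days, 2.29 ± 0.24 at 14 days and 1.33 ± 0.24 at 21 days, which is 4.13-fold, 4.90-fold and 2.51-fold. For scale, libraries of the compared groups did not overlap for 23.0%, 11.3% and 18.8% of all genes on these days. These values entered the choice of the gene, and nothing is read from them. Distally the gene was higher at 14 than at 12 days by 0.58 ± 0.24 and 1.87-fold lower at 21 than at 14 days. Proximally the group means stayed between 564.5 and 748, with overlapping libraries on all 3 days.

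Wfdc17, the nearest measured neighbour of Wfdc18, had lower distal than proximal means at 12 and 21 days, and its lowest values of both levels came at 14 days. After distal amputation its values were 164, 788, 737 and 525 at 12 days, 155, 182, 172 and 138 at 14 days, and 173, 424, 167 and 262 at 21 days. After proximal amputation they were 1092, 796, 1153 and 943, then 231, 153, 241 and 115, then 707, 1461, 398 and 454. The 2 levels did not overlap at 12 days, where the highest distal library (788) lay just under the lowest proximal one (796), and they overlapped at 14 and 21 days.

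The distal minus proximal difference of Wfdc17 was -1.06 ± 0.42 at 12 days, -0.14 ± 0.42 at 14 days and -1.46 ± 0.42 at 21 days on the log2 scale. Distal 12 day replicate 1 weighed on the first of these, which was -0.55 without it. With each library left out in turn, the difference at 14 days ran from -0.34 to 0.011. From 12 to 14 days the gene was 2.93-fold lower distally and 5.55-fold lower proximally, and from 14 to 21 days it was 1.48-fold and 3.70-fold higher. A list of macrophage markers, all 19 of which were measured, was set beside these values. Its summed value ran from 10062 to 11407, 10940 to 16613 and 6825 to 8114 in distal libraries at 12, 14 and 21 days. In proximal libraries the ranges were 10200 to 17446, 9686 to 15679 and 6814 to 10062. The part of macrophages in the Wfdc17 values was not tested. From 12 to 14 days after proximal amputation limma called 0 of the 19 markers higher and 1 lower (Itgam), against 7.35% and 7.84% of all genes. Their median difference was -0.15, against -0.01 for all genes. After distal amputation 4 were higher and 1 was lower from 12 to 14 days (11.2% and 8.12%). From 14 to 21 days 1 was higher and 12 were lower distally (13.3% and 21.5%). Proximally 0 were higher and 7 were lower over that interval (12.5% and 16.3%). Between levels 0 were called in limma at 14 days (5.39%), and at 21 days 0 were higher and 1 was lower distally (Ptprc, 8.22% and 9.43%). At 12 days 1 was higher and 8 were lower after distal amputation (9.25% and 11.0% of all genes), among them Adgre1, the gene of F4/80, by -1.25 ± 0.28 (limma adjusted p = 0.00286) and C1qa by -0.65 ± 0.22 (adjusted p = 0.0367), while Cd68 (0.11 ± 0.30) and Mrc1 (-0.33 ± 0.28) were not called. In bulk tissue, fewer cells of a type and less RNA per cell cannot be told apart.

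**Figure D2:**
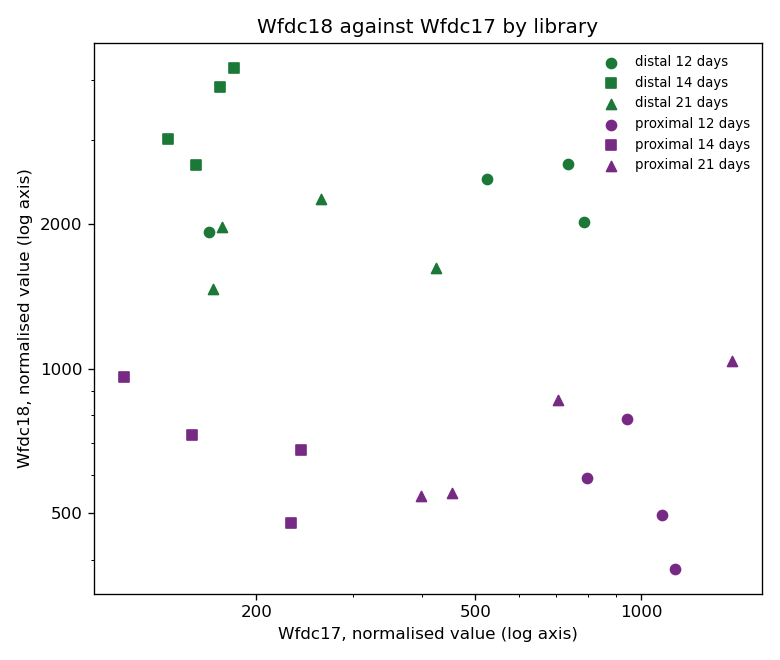
Wfdc18 against Wfdc17 in each of the 24 libraries, both as normalised values on log axes; colour gives the amputation level and marker shape the day. Distal libraries (green) lie at 1467 or more on the vertical axis and proximal ones (purple) at 1039 or less, while along the horizontal axis all 14 day libraries lie at 241 or less.

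Across the 24 libraries Wfdc17 and Wfdc18 had a Pearson correlation of -0.42 and a Spearman correlation of -0.38. Once the mean of each group was removed, the Pearson correlation was 0.22. The third gene of the row, Wfdc21, also known as Wdnm1-like, had correlations of 0.60 with Wfdc17 and -0.51 with Wfdc18 (Pearson). These correlations are descriptions over libraries that share a normalisation. Heatr6, the only other measured gene within 100 kb, starts 991 bases beyond Wfdc21. Its values lay between 411 and 742 over all libraries, and it was lower distally at 12 days by -0.30 ± 0.09 (limma adjusted p = 0.0216).

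Wfdc21 varied widely between libraries of a group. Its group means were 628 ± 344 (SD, n = 4) and 1060 ± 566 at 12 days, 273 ± 294 and 522.5 ± 304 at 14 days, and 909.5 ± 706 and 1621 ± 901 at 21 days, the distal group first in each pair. The levels overlapped on each day, and none of the differences was called (-0.80 ± 0.65, -1.36 ± 0.65 and -1.03 ± 0.65 on the log2 scale, adjusted p = 0.413, 0.238 and 0.289). Distally Wfdc21 rose 4.02-fold from 14 to 21 days (log2 2.01 ± 0.65, limma adjusted p = 0.0203). That call ended without any 1 of distal 14 day replicates 2 and 3 or distal 21 day replicates 2 and 4 (1.42 without 14 day replicate 2), and also when no other group entered the model (adjusted p = 0.0687). The proximal rise of 1.68 ± 0.65 was not called (adjusted p = 0.0579), although its 2 groups did not overlap, and the difference between the levels in this change was 0.33 ± 0.92 (adjusted p = 0.883).

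Slpi was higher after distal amputation at 12 days and lower at 21 days. At 12 days the distal libraries stood at 362, 195, 612 and 299 and the proximal ones at 81, 121, 34 and 100, with no overlap. At 14 days the distal libraries stood at 479, 1380, 388 and 91 and the proximal ones at 104, 68, 79 and 156, so that distal replicate 4 fell inside the proximal range. At 21 days the distal libraries stood at 30, 55, 32 and 29 and the proximal ones at 204, 212, 148 and 45, with distal replicate 2 above proximal replicate 4. The order of the levels had turned between 12 and 21 days.

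In limma the level difference of Slpi was 2.13 ± 0.60 at 12 days (4.39-fold, adjusted p = 0.015), 2.01 ± 0.60 at 14 days (4.02-fold, adjusted p = 0.0530, not called) and -1.86 ± 0.60 at 21 days (3.63-fold lower, adjusted p = 0.0357). Distally it fell by 3.44 ± 0.60 from 14 to 21 days (10.8-fold, adjusted p = 0.000139) and fell by 3.22 ± 0.60 from 12 to 21 days (9.34-fold, adjusted p = 0.000498). Proximally it did not pass the test in any pair of days, with differences of 0.34 to 0.77 ± 0.60. The levels differed in the change from 12 to 21 days by -3.99 ± 0.85 (adjusted p = 0.00273) and in that from 14 to 21 days by -3.87 ± 0.85 (adjusted p = 0.0257).

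The call at 12 days ended without distal replicate 3 (log2 1.85, adjusted p = 0.053) or proximal replicate 3 (1.75, adjusted p = 0.0612), and the call at 21 days ended without any 1 of distal replicates 1, 3 and 4 or proximal replicates 1, 2 and 3, with differences of -1.63 to -1.82. Distal 14 day replicates 2 and 4, at 1380 and 91, pulled the fall from 14 to 21 days in opposite directions, which was -2.83 without replicate 2 and -4.14 without replicate 4. Without replicate 2 the level difference in that change was -3.26 (adjusted p = 0.051), without proximal 14 day replicate 3 it was -3.77 (adjusted p = 0.0513), both not called. The level difference at 14 days was 1.40 without distal replicate 2 (adjusted p = 0.194) and 2.70 without distal replicate 4 (adjusted p = 0.00975). It was also called without proximal replicate 4 (2.23, adjusted p = 0.0442), and not when only the compared groups were fitted (adjusted p = 0.144).

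The summed level of neutrophil markers was set beside Slpi, whose course not all single markers shared. Of 13 listed markers, 5 were measured (S100a8, S100a9, Csf3r, Cxcr2 and Lcn2), and the others, among them Ly6g, Mpo and Ngp, are not analysed here. The summed value of the 5 ran from 1320 to 2953 in distal 12 days against 245 to 521 in proximal 12 days, from 222 to 14035 against 509 to 1629 at 14 days, and from 152 to 414 against 343 to 6201 at 21 days. The distal 14 day library with the highest Slpi (replicate 2) had the highest sum of all 24, and the one with the lowest Slpi (replicate 4) had the lowest of its group. In proximal 21 days the sums of replicates 2 and 3 were 6201 and 6092 and those of replicates 1 and 4 were 489 and 343, where Slpi stood at 212, 148, 204 and 45 in the same order. Of the 5 markers, limma called 1 higher distally at 12 days (Csf3r, 9.25% of all genes). It called 1 lower at 14 days (Cxcr2, 2.32%) and 2 lower at 21 days (Cxcr2 and Lcn2, 9.43%). Distally from 12 to 14 days 0 were higher and 2 lower (Csf3r and Cxcr2, 8.12%), where Slpi differed by 0.21 ± 0.60. Distally from 14 to 21 days Cxcr2 was higher (13.3%), and S100a8, S100a9 and Lcn2 were lower (21.5%), as Slpi was.

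S100a8 and S100a9, which neutrophils and wounded keratinocytes both make, carried most of the sum in the libraries where it was highest. They also did so in all distal 12 day libraries (1069 and 1489 of 2953 in replicate 3). S100a9 was second among the genes most like Slpi across the 24 libraries (Pearson 0.82, Spearman 0.80), with a correlation of 0.75 after removal of group means and 0.75 without the 2 libraries farthest from the Slpi median. Csf3r, the receptor for granulocyte colony-stimulating factor, was higher distally at 12 days by 3.07 ± 0.64 (limma adjusted p = 0.00184), at 84 to 170 against 7 to 20. At 12 days S100a8 differed by 2.61 ± 0.95 (adjusted p = 0.0569) and S100a9 by 2.96 ± 1.20 (adjusted p = 0.0853), neither called. Cxcr2 (58 to 127 distally against 71 to 109 proximally) and Lcn2 (50 to 112 against 24 to 41) were not called at 12 days either. The part of neutrophils in the Slpi values was not tested.

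**Figure D3:**
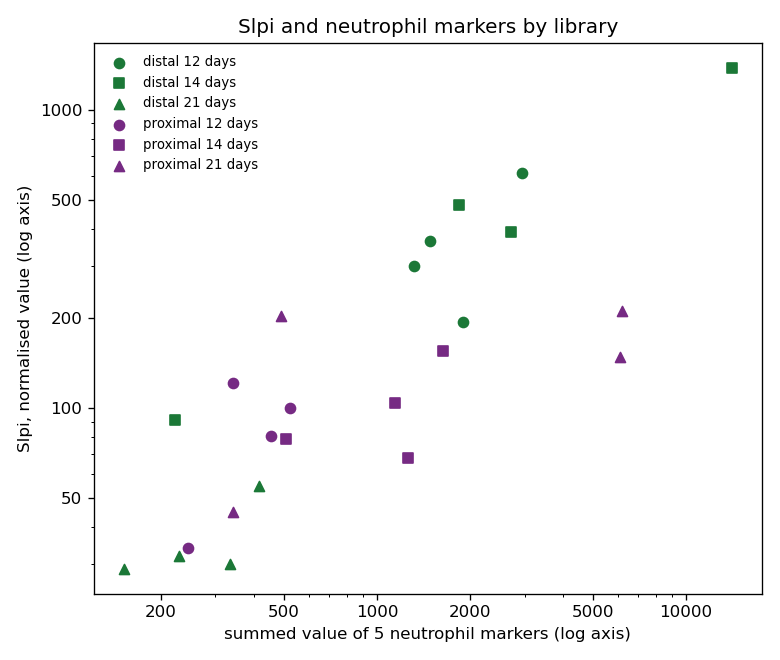
Slpi (vertical) against the summed value of 5 neutrophil markers (horizontal) in each library, both on log axes; colour gives the amputation level and marker shape the day. The distal 12 day libraries (195 to 612 on the vertical axis) lie to the right of the proximal 12 day ones, the distal 21 day libraries (29 to 55) sit at the lower left, and the point at the upper right is distal 14 day replicate 2.

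Of the remaining genes on chromosome 2, Wfdc3 differed between levels at 12 days. Its distal values were 40, 15, 24 and 38 and its proximal values 10, 1, 3 and 7, with no overlap, and the difference was 2.46 ± 0.46 on the log2(value + 1) scale (5.49-fold, limma adjusted p = 0.000664). Proximally Wfdc3 rose 3.57-fold from 12 to 14 days (1.84 ± 0.46, adjusted p = 0.00899) and 7.86-fold from 12 to 21 days (2.97 ± 0.46, adjusted p = 4.86e-05), to 31, 37, 48 and 44. Distally it stood at 10, 9, 13 and 13 at 14 days and at 29, 19, 12 and 42 at 21 days.

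The change of Wfdc3 from 12 to 14 days differed between levels by -3.06 ± 0.65 (adjusted p = 0.00423) and that from 12 to 21 days by -3.21 ± 0.65 (adjusted p = 0.0019). Its level differences at 14 days (-0.60 ± 0.46) and 21 days (-0.75 ± 0.46) were not called. These are low values, which the added 1 pulls together, and the depth behind them is unknown. Fitted without the other groups, the proximal rise from 12 to 14 days was not called (adjusted p = 0.067). The gene most like Wfdc3 was Krtap26-1, a keratin-associated protein gene (Pearson 0.90, Spearman 0.83), which was higher distally at 12 days by 3.82 ± 0.65. Krtap26-1 was picked for its likeness to Wfdc3 over these same libraries, so this difference is a description and adds no support.

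Wfdc12, a secreted WAP protein of epithelia and the most abundant of the 9 per kilobase at 12 days, dropped at 14 days after both amputations. Its distal values were 1518, 3789, 2311 and 1933 at 12 days, 808, 1354, 590 and 804 at 14 days, and 1556, 1287, 2358 and 2863 at 21 days. Its proximal values were 1890, 2929, 1997 and 3911, then 1030, 914, 1352 and 951, then 1519, 1696, 805 and 1155. At 12 and 14 days no library of one day overlapped the other day within a level.

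From 12 to 14 days Wfdc12 fell by 1.41 ± 0.31 distally (2.65-fold, limma adjusted p = 0.00298) and by 1.29 ± 0.31 proximally (2.44-fold, adjusted p = 0.00685), and the levels differed in this change by -0.12 ± 0.44 (adjusted p = 0.906). It then rose by 1.17 ± 0.31 distally (2.26-fold, adjusted p = 0.00508), against 0.25 ± 0.31 proximally (adjusted p = 0.589), where at 21 days it was still 2.06-fold below its 12 day level (adjusted p = 0.014). That last call ended without proximal 12 day replicate 4 (-0.84, adjusted p = 0.0581) or proximal 21 day replicate 3 (-0.83, adjusted p = 0.0626). The levels differed in the change from 14 to 21 days by 0.93 ± 0.44 (adjusted p = 0.244), so the rises themselves were not shown to differ. Between levels Wfdc12 was not called on any day (-0.19, -0.31 and 0.62 ± 0.31).

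Wfdc5 was lower at 14 than at 12 days after distal amputation. Its values ranged from 192 to 259 (median 257), 81 to 215 (median 165) and 175 to 338 (median 228.5) distally at 12, 14 and 21 days, and from 275 to 438 (median 344), 183 to 307 (median 213) and 322 to 427 (median 362) proximally. Distally it fell by 0.70 ± 0.24 from 12 to 14 days (limma adjusted p = 0.0487) and rose by 0.67 ± 0.24 from 14 to 21 days (adjusted p = 0.0369), and proximally it rose by 0.70 ± 0.24 from 14 to 21 days (adjusted p = 0.0347). The proximal difference from 12 to 14 days, -0.61 ± 0.24, was not called (adjusted p = 0.1004). The levels differed in this change by -0.09 ± 0.35 (adjusted p = 0.909), so the falls themselves were not shown to differ. The first call ended without any 1 of distal 12 day replicates 2, 3 and 4 or distal 14 day replicates 2 and 3, and was -0.41 without 14 day replicate 3. The second ended without any 1 of distal 14 day replicates 2 and 3 or distal 21 day replicates 2 and 4, and was 0.39 without 14 day replicate 3. The proximal call ended without any 1 of 14 day replicates 2, 3 and 4 or 21 day replicates 1, 2 and 4. With only the compared groups fitted, both distal calls ended (adjusted p = 0.101 from 12 to 14 days and 0.110 from 14 to 21 days). The distal fall was also not called without a variance trend (adjusted p = 0.0585) or with the low-spread direction as a covariate (adjusted p = 0.0587), nor the proximal rise with quality weights (adjusted p = 0.0699). The level differences of Wfdc5 were -0.51, -0.60 and -0.64 ± 0.24, and they were not called on any day (adjusted p = 0.144, 0.154 and 0.0746), although its 12 day libraries did not overlap. At 21 days it was called with equal table totals (-0.78, adjusted p = 0.0127), in the 2 groups fitted by themselves (adjusted p = 0.0477) and without distal 21 day replicate 4 (-0.81).

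The summed level of epidermal markers was also lower at 14 days distally, without overlap, while proximal libraries overlapped. The 18 epidermal markers were all measured, and their summed value, in distal libraries, ran from 820421 to 1020927 at 12 days, 486510 to 678551 at 14 days and 767270 to 992730 at 21 days. In proximal libraries the ranges were 955885 to 1288548, 573691 to 1026968 and 935895 to 1117260. From 12 to 14 days limma called 0 of the 18 higher and 6 lower distally (Krt1, Krt10, Krt2, Flg, Dsg1a and Sbsn, genes of differentiated layers). Proximally it called 2 higher (Krt6a and Krt16, keratins of wounded epidermis) and 2 lower (Krt10 and Dsg1a). Of all genes, 11.2% were called higher and 8.12% lower distally, and 7.35% and 7.84% proximally. Between levels at 12 days, 2 of the 18 were higher and 1 was lower distally (Krt6a, Ivl and Dsg3), against 9.25% and 11.0% of all genes. At 14 days 0 were higher and 1 was lower (Krt2, 3.06% and 2.32%). At 21 days 1 was higher and 3 were lower (Krt5, Krt17, Ivl and Col17a1, 8.22% and 9.43%). Krt14, the basal layer keratin, was not called between levels on any day (0.33, -0.14 and -0.20 ± 0.22), nor was Krt10 (-0.69, -1.10 and -0.39 ± 0.34). The part of the epidermis in the 14 day values of Wfdc12, Wfdc5, Wfdc21 and Wfdc17 was not tested.

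By correlation across libraries, the genes most like these 4 were the following. For Wfdc5 they were Lypd5, Spink5, an inhibitor of epidermal kallikreins, and Dnase1l3 (Pearson 0.91, 0.89 and 0.88). For Wfdc12 they were Tdh, Twf1 and the transmembrane serine protease gene Tmprss11d (0.84, 0.83 and 0.81). For Wfdc21 they were P2ry4, a nucleotide receptor, Csnk2a2 and Hal, the histidine ammonia-lyase that makes urocanic acid in the skin (0.96, 0.90 and 0.90), and for Wfdc17 Degs1, a ceramide desaturase, the metal transporter gene Slc11a2 and Serpinb3a (0.91, 0.89 and 0.87). After removal of group means the correlation with P2ry4 was 0.92, with Lypd5 0.86 and with Degs1 0.72. The search covered 12486 genes with a mean value of at least 50, over 24 libraries that share a normalisation and whose epidermal marker sum ran from 486510 to 1288548, and is a description.

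For Wfdc18 the same search gave Il12rb2, a subunit of the interleukin 12 receptor, the carbonyl reductase gene Cbr2 and the adaptor gene Dok4 (Pearson 0.86, 0.86 and 0.84). Within groups these correlations were 0.34, 0.28 and 0.20, so the likeness lay mostly between groups. Il12rb2 ran from 613 to 796 in distal 12 days against 117 to 262 in proximal 12 days, and Cbr2 from 339 to 518 against 145 to 173. The genes most like Slpi besides S100a9 were Sdhd and Gcsh (Pearson 0.82 and 0.80), which encode a subunit of succinate dehydrogenase and a part of the glycine cleavage system.

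Wfdc2 was not called in any of the 12 comparisons. Its distal libraries ranged from 49 to 265 (median 62.5), 60 to 91 (median 79.5) and 29 to 121 (median 54) at 12, 14 and 21 days, and its proximal ones from 14 to 95 (median 18.5), 15 to 204 (median 40) and 7 to 53 (median 14.5). The distal median was thus the higher on each day, but the levels overlapped each time. The differences of 1.66, 0.76 and 1.68 ± 0.73 had limma adjusted p = 0.114, 0.599 and 0.114. With libraries weighted by quality the 12 day difference was called (1.87, adjusted p = 0.0485), and so it was without proximal 12 day replicate 3 (2.26), as was the 21 day difference without proximal 21 day replicate 1 (2.22). Other libraries pulled the opposite way: the 12 day difference was 1.11 without distal replicate 4 and the 21 day difference 1.30 without proximal replicate 2. At 14 days it ran from 0.26 without proximal replicate 1 to 1.48 without proximal replicate 3. The genes most like it were Stk39, a kinase that regulates ion cotransporters, Pfkp and Sorl1 (Pearson 0.87, 0.85 and 0.84).

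Wfdc1, the stromal member, rose to 14 days after distal amputation. Its distal values were 33, 57, 37 and 33 at 12 days, 108, 89, 87 and 98 at 14 days, and 61, 90, 59 and 77 at 21 days. Its proximal values were 63, 83, 94 and 53, then 92, 111, 149 and 74, then 54, 49, 61 and 55. At 12 days the levels overlapped only through distal replicate 2 (57) and proximal replicate 4 (53).

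At 12 days Wfdc1 was lower distally by -0.86 ± 0.21 (1.81-fold, limma adjusted p = 0.00636), and the levels were not called at 14 days (-0.11 ± 0.21) or 21 days (0.37 ± 0.21). Distally it rose 2.41-fold from 12 to 14 days (1.27 ± 0.21, adjusted p = 0.000296) and stayed 1.79-fold above its 12 day level at 21 days (adjusted p = 0.0059). Proximally it fell 1.87-fold from 14 to 21 days (-0.90 ± 0.21, adjusted p = 0.00289). Its proximal difference from 12 to 14 days, 0.52 ± 0.21, was also upward but not called (adjusted p = 0.102). The levels differed in the change from 12 to 21 days by 1.23 ± 0.30 (adjusted p = 0.00768). In the change from 12 to 14 days the level difference, 0.75 ± 0.30, was not called (adjusted p = 0.114). Nor was that from 14 to 21 days, 0.48 ± 0.30 (adjusted p = 0.393).

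Fibroblast markers had a lower sum in distal than in proximal libraries at 12 days, and their sum was lowest at 21 days at both levels, as Wfdc1 was proximally but not distally. All 8 listed markers were measured, and their sum ran from 186475 to 291815, 398701 to 638219 and 132764 to 183411 in distal libraries at 12, 14 and 21 days, and from 388841 to 493331, 397725 to 605917 and 110980 to 161979 in proximal ones. At 12 days 0 of the 8 were higher and 3 lower after distal amputation (Col3a1, Pdgfra and Thy1; 11.0% of all genes were called lower), with a median of -0.53 against -0.03 for all genes. From 12 to 14 days after distal amputation, where Wfdc1 rose, 5 of the 8 were higher (Col1a2, Col3a1, Pdgfra, Lum and Thy1; 11.2% of all genes) and 0 lower. Col8a2, a short-chain collagen and one of the 3 genes most like Wfdc1 with Cped1 and Kif7 (Pearson 0.85, 0.88 and 0.86), was at 839 ± 279 against 2475 ± 861 at 12 days. The part of these cells in the Wfdc1 values was not tested.

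**Figure D4:**
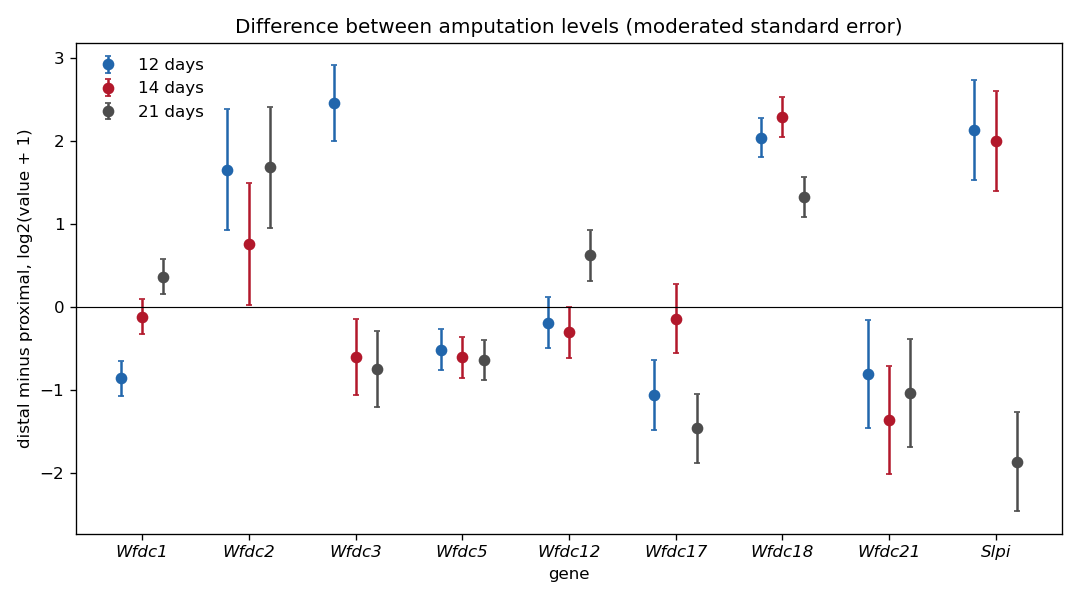
Distal minus proximal difference on the log2(value + 1) scale for each gene at 12, 14 and 21 days; points are fitted differences and bars moderated standard errors. Wfdc18 is above 0 on all 3 days (2.05, 2.29 and 1.33), Slpi changes sign between 14 and 21 days, and Wfdc3 is above 0 at 12 days only.

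Counted over the 7 tested genes, 3 were called between levels at 12 days, where limma called 20.3% of all genes. Wfdc3 and Slpi were higher after distal amputation (9.25% of all genes were called higher) and Wfdc1 was lower (11.0%). At 14 days 0 of 7 were called in limma, where 5.39% of all genes were (3.06% higher and 2.32% lower), and 3 of the 7 (Wfdc5, Wfdc21 and Slpi) had an unadjusted p under 0.05, as 20.7% of all genes did. At 21 days 1 of 7 was called, against 17.6% of all genes: Slpi was lower (9.43% of all genes were called lower and 8.22% higher). The median difference of the 7 was -0.19, -0.31 and -0.64 on these days, against -0.03, 0.00 and -0.05 for all genes. At an unadjusted p under 0.05 the counts were 5 of 7 at 12 days (33.5% of all genes) and 3 of 7 at 21 days (31.8%).

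Distally, 3 of 7 were called from 12 to 14 days, with Wfdc1 higher (11.2% of all genes) and Wfdc5 and Wfdc12 lower (8.12%), where 19.4% were called in all. From 14 to 21 days 4 of 7 were called, with Wfdc5, Wfdc12 and Wfdc21 higher (13.3%) and Slpi lower (21.5%), against 34.8% in all. From 12 to 21 days 2 of 7 were called, Wfdc1 higher (8.81%) and Slpi lower (15.0%), against 23.8% in all.

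Proximally, 2 of 7 were called each time. From 12 to 14 days Wfdc3 was higher (7.35% of all genes) and Wfdc12 lower (7.84%), against 15.2% in all. From 14 to 21 days Wfdc5 was higher (12.5%) and Wfdc1 lower (16.3%), against 28.7% in all. From 12 to 21 days Wfdc3 was higher (12.0%) and Wfdc12 lower (17.0%), against 29.0% in all.

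The level difference in the change was called for 1 of 7 from 12 to 14 days, where Wfdc3 was lower (5.08% of all genes were called lower and 6.61% higher, 11.7% in all). From 14 to 21 days it was called for 1 of 7, Slpi, which was lower (0.897% lower and 1.00% higher, 1.90% in all). From 12 to 21 days it was called for 3 of 7, with Wfdc1 higher (7.42%) and Wfdc3 and Slpi lower (7.42%), against 14.8% in all. These counts are small, the comparisons share groups, and nothing particular to the family is read from them.

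Leaving out Wfdc17 and Wfdc18, whose values entered the choice, libraries of the 2 levels did not overlap for 3 of the 7 genes at 12 days (Wfdc3, Wfdc5 and Slpi; 23.0% of all genes) and for 0 of 7 at 14 days (11.3%) and 21 days (18.8%). Distal groups did not overlap for 3 of 7 between 12 and 14 days (Wfdc1, Wfdc3 and Wfdc12; 20.7%), for 1 between 14 and 21 days (Slpi; 31.0%) and for 2 between 12 and 21 days (Wfdc1 and Slpi; 23.9%). Proximal groups did not overlap for 1 between 12 and 14 days (Wfdc12; 18.1%), for 3 between 14 and 21 days (Wfdc1, Wfdc5 and Wfdc21; 25.4%) and for 2 between 12 and 21 days (Wfdc3 and Wfdc12; 27.7%).

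The proteases that WAP proteins are known to meet, and their binding partners, were followed with a list of 19 genes, of which 15 were measured. The neutrophil protease genes Elane, Prtn3 and Ctsg are not analysed here. At 12 days 1 was higher and 4 were lower after distal amputation (9.25% and 11.0% of all genes). At 14 days 0 were called in limma (5.39%), and at 21 days 1 was higher and 4 were lower (8.22% and 9.43%). The medians were -0.22, -0.20 and -0.54, against -0.03, 0.00 and -0.05 for all genes. Grn, whose product progranulin is protected by Slpi from cleavage, was lower distally at 12 days by -0.39 ± 0.08 (adjusted p = 0.00137). Anxa2, a cell surface protein that binds Slpi, was higher by 0.36 ± 0.08 at 12 days (adjusted p = 0.00281) and lower by -0.31 ± 0.08 at 21 days (adjusted p = 0.0113). The mast cell protease genes Cma1, Mcpt4 and Tpsb2 were not called between levels, with differences from -1.34 ± 0.56 (Mcpt4, 21 days) to 0.33 ± 0.56 (Mcpt4, 12 days).

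Other secreted protease inhibitors, a list of 19 with 14 measured, had 2 higher and 3 lower at 12 days, 0 higher and 1 lower at 14 days (Stfa3), and 1 higher and 3 lower at 21 days, beside the same shares of all genes (3.06% higher and 2.32% lower at 14 days). Their medians were -0.37, -0.20 and -0.23. Cst3, the gene of cystatin C, was lower distally at 12 days by -0.50 ± 0.11 (limma adjusted p = 0.00258), and Cst6, an epidermal cystatin, at 21 days by -1.42 ± 0.40 (adjusted p = 0.0187). The Kunitz inhibitor genes Spint1 and Spint2, the kallikrein inhibitor gene Spink5 and Tfpi2 were not called between levels on any day. Of a wider list of 24 WAP domain genes, 10 were measured, and the only one besides the 9 was Wfikkn1, lower distally at 21 days by -0.41 ± 0.13 (adjusted p = 0.0341).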

How the data were processed

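Members and gene lists were chosen with earlier results of these data known. The submitters' processing notes list STAR 2.5.4b, featureCounts 1.6.3 from Subread, cutadapt and build mm10. The authors deposited whole numbers for 15055 genes, treated here as a score and not as raw reads: upper quartiles of the 24 libraries lay between 902.5 and 930.5, while table totals ran from 15264829 to 19351055. Over the 9650 genes always above 100, 1 direction across libraries varied by only 0.00675 (natural log), where Poisson sampling alone gives 0.0453. The values therefore look normalised, although labels and headers name no such step, so depth is unknown and p-values may be too small.

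Using limma 3.58.1 (R 4.3.3, eBayes with a trend), log2(value + 1) was modelled over all 24 libraries and 6 group means (18 residual degrees of freedom), without a filter, in 12 comparisons, and a gene was called where its p, Benjamini-Hochberg adjusted over the whole table, was under 0.05. The fit was tested on simulated data. Errors of differences are moderated standard errors. Named genes are the 9 members, the 3 genes with the highest Pearson correlation to each, measured genes within 100 kb of Wfdc17, Wfdc18 or Wfdc21, and fixed members of the lists (A2m, not analysed here, among them). Markers named by a count were read from the calls. Sequences and coordinates are from RefSeq (GRCm38.p6). Promoter windows were found for 6 of the 9 genes and aligned with Biopython 1.88. Gene lengths are those the authors deposited. Alternatives tried were other pseudocounts, scalings, a filter, weights, no trend, a fit limited to the compared groups, a replicate block, each library left out, and, added after the data were seen, the low-spread direction as a covariate.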

Additional observations from a re-analysis of the deposited data

Results flagged for a closer look

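In 6 of 54 groups of 4 (9 genes in 6 groups), 1 library stood apart from the other 3 by a gap above Dixon's 95% critical share of the group's range. For normally distributed values chance gives this in about 1 in 20 groups. The gaps were taken on the deposited values and not on the log2 scale of the tests, and normality was not checked, so the 2 shares cannot be compared directly. Wfdc1 stood at 57 in distal 12 day replicate 2, with the others at 33 to 37. Wfdc2 stood at 265 in distal 12 day replicate 4 (others 49 to 64) and at 95 in proximal 12 day replicate 3 (others 14 to 20). Wfdc5 stood at 192 in distal 12 day replicate 1, below the others at 257 to 259. Wfdc21 stood at 2958 in proximal 21 day replicate 1 (others 990 to 1292), and Slpi at 55 in distal 21 day replicate 2 (others 29 to 32).

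The change over time differed between the amputation levels, by a test of that difference in limma, for 3 genes. For Slpi the difference was -3.87 from 14 to 21 days and -3.99 from 12 to 21 days, for Wfdc1 it was 1.23 from 12 to 21 days, and for Wfdc3 it was -3.06 from 12 to 14 days and -3.21 from 12 to 21 days, all on the log2 scale.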

How the results depend on the processing

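Of 583 recomputed differences of single members under settings other than a left-out library, 571 counted as unchanged, 7 were no longer called and 5 became called. For the 7 tested genes unchanged means the same direction and side of the threshold, and 0 of their differences changed direction. For Wfdc17 and Wfdc18, which were not tested, it means a move smaller than the gene's residual spread. Comparisons over time of tested genes entered only where the main fit called them, so new calls there are not among the 5. Counts of called members, out of 7, moved by over 1.5 times as follows. Distal against proximal at 14 days went from 0 to 1 with a pseudocount of 8 and with genes of a mean value of at least 50, and at 21 days from 1 to 2 with equal table totals and in a fit of the compared groups alone. Proximal 21 against 14 days went from 2 to 4 with equal table totals and in the compared groups alone, and to 1 with sample quality weights. In the compared groups alone, distal 21 against 14 days went from 4 to 2 and proximal 14 against 12 days from 2 to 1. The filter at a mean of 50, which removes Wfdc3, took proximal 14 against 12 days and proximal 21 against 12 days from 2 to 1, and the level difference in the change from 12 to 14 days from 1 to 0. For the other settings the cause was not tested.

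With each library left out, the counts ran from 0 to 1 (distal against proximal at 14 days), 0 to 1 (at 21 days), 2 to 5 (distal 21 against 14 days), 1 to 3 (proximal 21 against 14 days), 1 to 2 (proximal 21 against 12 days), 1 to 2 (level difference, 12 to 14 days) and 0 to 1 (level difference, 14 to 21 days). Differences that were not called changed sign for Wfdc12 at 12 days (-0.44 to 0.015, the latter without proximal 12 day replicate 4, and 0.0018 without distal 12 day replicate 1) and Wfdc1 at 14 days (-0.27 to 0.062, the latter without proximal 14 day replicate 3). So did 2 differences given without a test, Wfdc17 between levels at 14 days (-0.34 to 0.011) and Wfdc18 proximally from 14 to 21 days (-0.12 to 0.22). The replicate block moved no count of called members by over 1.5 times and left the count at 12 days at 3. Same-numbered libraries of different groups share only a number: their deviations from group means correlated from -0.46 to 0.70 (median 0.02), and 6 of 24 libraries correlated best with their own number. Depth is unknown, which limits the low values of Wfdc3, Wfdc1 and Wfdc2 most.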
